A study of Mus musculus with 6 samples.

Results

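Glutathione transferases are enzymes that join glutathione, a small sulphur-containing peptide, to reactive compounds so that cells can export them. They fall into classes by sequence: the cytosolic alpha, mu, pi, omega and theta classes and a separate family of microsomal enzymes that sit in membranes. Many of their genes respond to the oxidative-stress factor NRF2, and in human small intestine the alpha class is known as a major class of the absorptive epithelium. The 10 genes described here were picked by name from the 21878 genes of the deposited FPKM table. They are Gsta2, Gsta3 and Gsta4 of the alpha class, Gstm1 and Gstm3 of the mu class, Gstp1 (pi), Gsto1 (omega), Gstt1 (theta), and the microsomal Mgst1 and Mgst2. All 10 were in the table and all 10 passed the filter on low values, which asked for 1 FPKM in at least 2 of the 6 libraries.

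The RNA came from crypts, the gland-like pits of the intestinal lining, of C57BL/6 mice. There were 3 groups, each with 2 libraries. Control crypts (replicates 2 and 3) came from mice that were not irradiated, and AIR crypts (replicates 1 and 3) were taken 3 days after irradiation of the abdomen. AIR_MPLA crypts (replicates 1 and 3) were taken 3 days after the same irradiation with MPLA, known as an agonist of Toll-like receptor 4. The MPLA treatment is named in the titles and the design text but not in the treatment label, and the labels used here give no radiation dose, no MPLA dose and no age. Nothing says whether replicates came from separate mice or from pooled ones, so p-values measure the spread between these libraries, which may be technical. Values are FPKM, fragment counts scaled by transcript length and by library size, so levels of different genes can be set side by side per length. No read totals are known.

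One library needs care throughout. The values deposited for Control replicate 2 as a single sample differ from the column of the whole-series table that carries its number. The single-sample values were used, and the series-table value is given where it bears on a result. FPKM totals ranged from 381669 to 492247 over the libraries, and 9842 to 10179 genes reached 1 FPKM in each. Markers of epithelial cells were present: the summed FPKM of 12 enterocyte markers was 6349 and 7675 in Control, and that of 9 crypt base stem cell markers was 938 and 741. The 6 markers of fibroblasts and smooth muscle and the 4 of endothelium were all under 1 FPKM in every library. T cell markers were present and differed by group: the 6 summed to 117 and 181 FPKM in Control, 30.9 and 39.2 in AIR, and 20.3 and 28.9 in AIR_MPLA.

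Several of these genes have near-identical neighbours, and reads from such copies can be assigned to the wrong one. The first 60 coding bases show this, taken from GENCODE M21 transcripts of GRCm38 and written 5′ to 3′. Capitals mark bases that differ from the first gene of each set. The alpha genes Gsta2, Gsta1, Gm3776, Gm10639 and Gsta4 all lie on chromosome 9, between 78191966 and 78347192 (RefSeq, GRCm38.p6), while Gsta3 lies on chromosome 1 at 21240565 to 21265575.
Gsta2: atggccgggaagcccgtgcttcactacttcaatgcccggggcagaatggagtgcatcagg
Gsta1: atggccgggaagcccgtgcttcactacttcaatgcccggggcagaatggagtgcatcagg
Gm3776: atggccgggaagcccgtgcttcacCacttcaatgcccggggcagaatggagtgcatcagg
Gm10639: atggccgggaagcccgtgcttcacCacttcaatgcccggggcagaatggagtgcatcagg
Gsta3: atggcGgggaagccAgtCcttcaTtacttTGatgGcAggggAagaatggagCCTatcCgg
Gsta4: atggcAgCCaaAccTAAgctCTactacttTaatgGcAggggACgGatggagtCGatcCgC

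Gsta2 and Gsta1 were identical over this window, and Gm3776 and Gm10639 each differed from Gsta2 at 1 base. Gsta3 differed at 13 bases and Gsta4 at 19. Over the whole coding sequence Gsta2 was 98.5% identical to Gm10639, 97.6% to Gsta1 and 97.3% to Gm3776, but 75.5% to Gsta3 and 67.1% to Gsta4. The mu genes Gstm1 (108012250 to 108017973) and Gstm3 (107963696 to 107969174) lie near each other on chromosome 3, with Gstm2 (107981702 to 107986420) between them. Gstp1 (4035411 to 4037912) lies beside its copy Gstp2 on chromosome 19.
Gstm1: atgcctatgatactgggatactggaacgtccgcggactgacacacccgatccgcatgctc
Gstm3: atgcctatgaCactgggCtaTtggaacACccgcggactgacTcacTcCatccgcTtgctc
Gstp1: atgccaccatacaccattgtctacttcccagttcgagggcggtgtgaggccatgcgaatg
Gstp2: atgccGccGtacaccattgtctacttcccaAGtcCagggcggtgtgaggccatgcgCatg

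Gstm1 and Gstm3 were 89.4% identical over their coding sequences, and Gstp1 and Gstp2 were 98.1% identical. To see how far reads could be shared, each transcript was cut into all stretches of 50 bases, and each stretch was looked for in the transcripts of every other gene. For Gsta2, 64.2% of stretches also occurred in another gene, with Gsta1 the most frequent. The share was 62.3% for Gstp1, all of them in Gstp2, 28.8% for Gstm3 and 23.1% for Gstm1. For Gsta3, Gsta4, Gsto1, Gstt1, Mgst1 and Mgst2 it was 0. With stretches of 100 bases the shares were 35.0% for Gsta2, 52.8% for Gstp1, 13.8% for Gstm3 and 7.73% for Gstm1. Neither the read length nor the handling of reads with several matches is known here, and the values of Gsta2, Gstp1, Gstm1 and Gstm3 are uncertain at the level of the single gene.

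**Figure D1:**
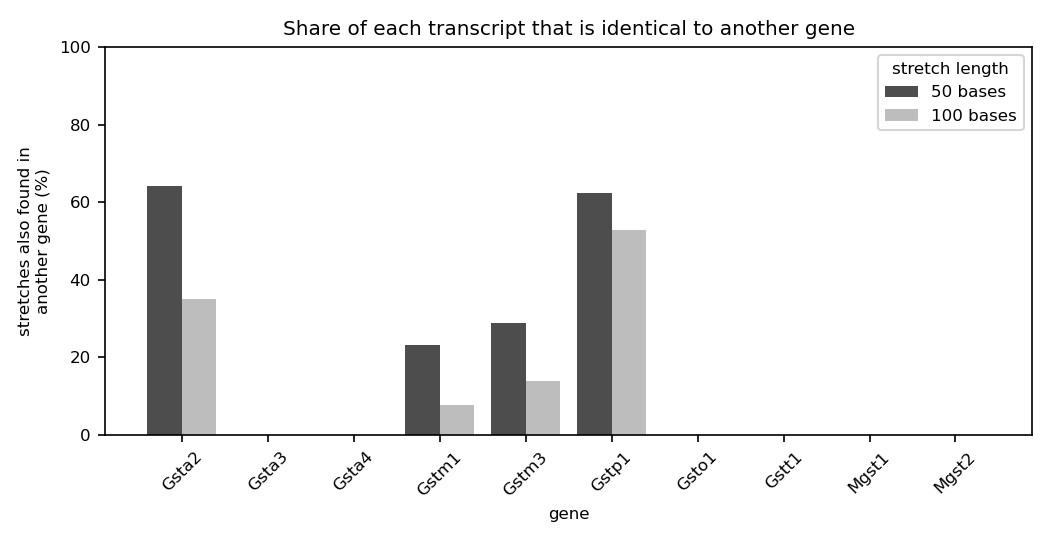
Share of the 50-base (dark bars) and 100-base (light bars) stretches of each gene's transcript that also occur in a transcript of another gene, in percent. Gsta2 and Gstp1 share over 60% of their 50-base stretches, Gstm1 and Gstm3 share 23.1% and 28.8%, and the other 6 genes share none.

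In unirradiated crypts the most abundant of the 10 was Gsto1, at 464 FPKM in replicate 2 and 592 in replicate 3. Mgst1 (274 and 198), Gstm3 (238 and 190) and Gstp1 (147 and 274) followed, and the libraries of these 3 genes overlapped, so they have no clear order. The series-table values of Control replicate 2 were 241 for Gstp1, 189 for Mgst1 and 153 for Gstm3, the order of replicate 3. Gstm1 (71.7 and 75.6) and Gsta4 (68.4 and 72.5) lay together below them, ahead of Mgst2 (29.3 and 23.0) and Gstt1 (13.8 and 17.7). Gsta3 (2.93 and 2.69) and Gsta2 (2.08 and 2.21) were the lowest. The 3 alpha members thus made up 5.60% and 5.35% of the summed FPKM of the 10 in the Control libraries, the 2 mu members 23.6% and 18.4%, and Gsto1 35.4% and 40.9%. These shares are of the 10 genes and not of whole classes. Gsta1 of the alpha class, at 123 and 137 FPKM, was alone above the 3 alpha members' sum of 73.4 and 77.4, and the microsomal gene Mgst3, at 556 and 724, was above Mgst1 in both libraries. The 10 genes together took 0.344% and 0.294% of all FPKM.

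Among the 10 genes the shares differed between the groups. After irradiation Mgst1 and Mgst2 together took 43.8% and 56.9% of the 10 genes' FPKM, against 23.1% and 15.3% in Control, and the mu pair 9.31% and 8.82%. Mgst3, which is outside these shares, did not pass in AIR against Control, with 462 and 609 FPKM in AIR overlapping Control (log2 difference -0.26, limma adjusted p = 0.441). In AIR_MPLA the share of Mgst1 and Mgst2 was 28.7% and 24.7% and the mu share 18.3% and 26.5%. The alpha share was 9.91% and 7.37% in AIR and 7.75% and 8.54% in AIR_MPLA, above both Control libraries in each case. Summed FPKM of the 10 was 1311 and 1449 in Control, 1759 and 1912 in AIR, and 1921 and 2348 in AIR_MPLA. The 2 Control libraries lay below the other 4. With 2 libraries per group no exact test of these sums could fall below the threshold, and none was made.

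**Figure D2:**
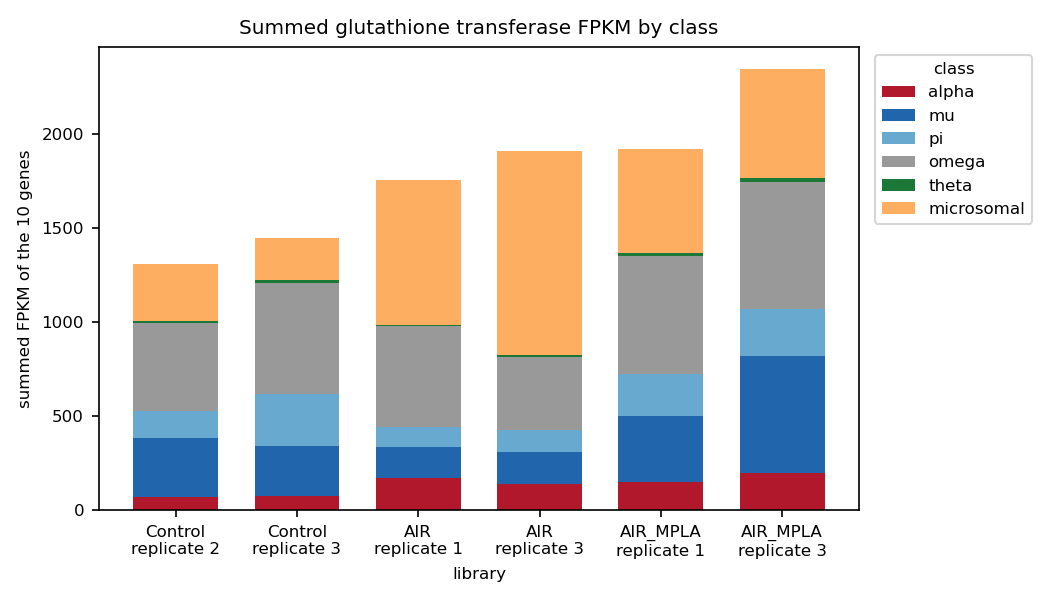
Summed FPKM of the 10 genes in each library, stacked by class. The microsomal part is largest in the AIR libraries (770.5 and 1088 FPKM), and the mu part is smallest there (164 and 169 FPKM).

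The comparison of AIR with Control asks which of these transcripts differed 3 days after abdominal irradiation. The alpha and microsomal members rose and Gstm3 of the mu class fell. By limma on log2(FPKM + 1), with p-values adjusted over all 10415 genes tested, 5 of the 10 were higher, 1 was lower and 4 did not pass. Of all genes tested 8.05% were higher and 18.7% lower. The median difference of the 10 was 0.36 on the log2 scale, beside -0.13 for all genes. With median-ratio scaling, which removes most of that shift, the calls over all genes were 1164 higher and 1181 lower, and the same 6 members passed. In bulk crypt RNA, more transcript per cell and a larger share of cells that hold it cannot be told apart. Where groups are said not to overlap, here and below, the share of all genes without overlap is not given. A lack of overlap therefore describes the values and does not set a gene apart.

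Gsta3, whose product in mice is known for detoxifying aflatoxin epoxide, was at 2.93 and 2.69 FPKM in Control and at 25.4 and 24.9 in AIR. Both AIR libraries lay far above both Control libraries and close to each other. The mean was 8.96 times as high, and the log2 difference was 2.78 (SE 0.17, limma adjusted p = 0.00405). Gsta2 was at 2.08 and 2.21 FPKM in Control and at 9.43 and 8.32 in AIR (log2 difference 1.65, SE 0.16, limma adjusted p = 0.00453). The groups did not overlap, but 64.2% of its 50-base stretches also occur in other genes, 44.8% in Gsta1. Gsta1 itself, which is not among the 10, was at 123 and 137 FPKM in Control and 407 and 249 in AIR (log2 difference 1.29, limma adjusted p = 0.0177). Summed over Gsta1, Gsta2, Gm3776 and Gm10639, the level was 161 and 163 FPKM in Control and 551 and 325 in AIR. How reads that match several of these genes were handled is not known, so the sum is uncertain too. Gm3776 and Gm10639 were added after their values were seen.

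Gsta4, whose enzyme acts on 4-hydroxynonenal, an aldehyde of lipid peroxidation, was at 68.4 and 72.5 FPKM in Control. It was at 140 and 108 in AIR, and the groups did not overlap (log2 difference 0.79, SE 0.21, limma adjusted p = 0.0367). The call was lost without AIR replicate 1 (adjusted p = 0.167), AIR replicate 3 (0.0692), AIR_MPLA replicate 1 (0.0617) or AIR_MPLA replicate 3 (0.0607) in the limma fit. It was also lost without a filter (0.0701) and with only the 4 libraries compared (0.0611). The alpha members did not move in proportion: Gsta4 was 23.4 and 27.0 times as high as Gsta3 in Control, but 5.50 and 4.33 times as high in AIR.

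Mgst1, a membrane enzyme with both transferase and peroxidase activity (chromosome 6, 138140527 to 138156755), was at 274 and 198 FPKM in Control and at 728 and 1028 in AIR. The AIR libraries were both far above the higher Control library, and the mean ratio was 3.72 (log2 difference 1.89, SE 0.25, limma adjusted p = 0.00754). It became the most abundant of the 10 in both AIR libraries. Mgst2, which can make leukotriene C4 (chromosome 3, 51636912 to 51682675), was at 29.3 and 23.0 FPKM in Control and at 42.8 and 59.6 in AIR (log2 difference 0.93, SE 0.21, limma adjusted p = 0.0212). It did not pass the limma test without AIR replicate 1 (adjusted p = 0.0586) or AIR replicate 3 (0.0958). Mgst1 was 9.35 and 8.62 times as high as Mgst2 in Control and 17.0 and 17.2 times in AIR.

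Gstm3, a mu class enzyme that conjugates electrophiles, was at 238 and 190 FPKM in Control and at 86.7 and 104 in AIR. The groups did not overlap, and it fell by 1.16 on the log2 scale (SE 0.29, limma adjusted p = 0.0296). The limma call was lost without Control replicate 2 (adjusted p = 0.0659), AIR replicate 1 (-1.03, 0.140) or AIR replicate 3 (-1.29, 0.0892), and without a filter (0.0665). With GC correction and the whole-series values of Control replicate 2 together, the log2 difference was -0.47 (adjusted p = 0.200). Gstm1 did not pass: 71.7 and 75.6 FPKM in Control and 77.1 and 64.5 in AIR overlapped. Its log2 difference was -0.06, with a 95% interval from -0.72 to 0.59 that leaves room for a change in either direction, and its sign turned with median-ratio scaling (0.087).

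Gstp1, the pi class enzyme, was at 147 and 274 FPKM in Control and at 105 and 117 in AIR, without overlap, and did not pass (log2 difference -0.85, limma adjusted p = 0.0682). With the series-table value of Control replicate 2, which was 241 FPKM, it passed (log2 difference -1.21, limma adjusted p = 0.000241), and it passed without that library too (-1.30, 0.00255). Gstt1, of the theta class that acts on small halogenated compounds (chromosome 10, 75783813 to 75798584), was at 13.8 and 17.7 FPKM in Control and 9.73 and 10.9 in AIR. It missed the threshold (log2 difference -0.56, limma adjusted p = 0.0615), but passed with the series-table value (-0.72, 0.00181) and without Control replicate 2 (-0.73, 0.0158). Gsto1, an omega class enzyme with thioltransferase and dehydroascorbate reductase activity (chromosome 19, 47854973 to 47864790), was at 464 and 592 FPKM in Control and 536 and 387 in AIR. Its libraries overlapped (log2 difference -0.20, 95% interval -0.76 to 0.35, limma adjusted p = 0.535).

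Gsta2, Gsta3 and Mgst1 passed in AIR against Control under each of the 15 other settings tried, with Gsta3 between 2.63 and 3.12 on the log2 scale and Mgst1 between 1.64 and 2.15. Transcript GC content moved with these results. The 5 members that rose had a GC content of 45.2% to 49.2% and the other 5 one of 52.3% to 55.7%. After a trend with GC content was removed from each library, the 5 that rose still passed (Gsta3 at 2.65, Mgst1 at 1.87), while Gstm3 did not (log2 difference -0.85, limma adjusted p = 0.0669). Markers of other cell states moved too, beside 8.05% higher and 18.7% lower over all genes. The summed FPKM of 12 enterocyte markers was 18338 and 13664 in AIR, with 5 higher and 2 lower of 12 tested and none at 0. That of 7 regenerative epithelium markers was 130 and 161 in Control and 856 and 406 in AIR. Of 6 regenerative markers tested, 5 were higher and 0 lower. The 9 stem cell markers summed to 152 and 335 in AIR, 8 of them lower. Paneth cell markers summed to 14908 and 44901 FPKM in Control and 6857 and 7960 in AIR, with 4 of 6 lower, and all 6 T cell markers were lower in AIR. The part of these cell markers in the transferase results was not tested.

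**Figure D3:**
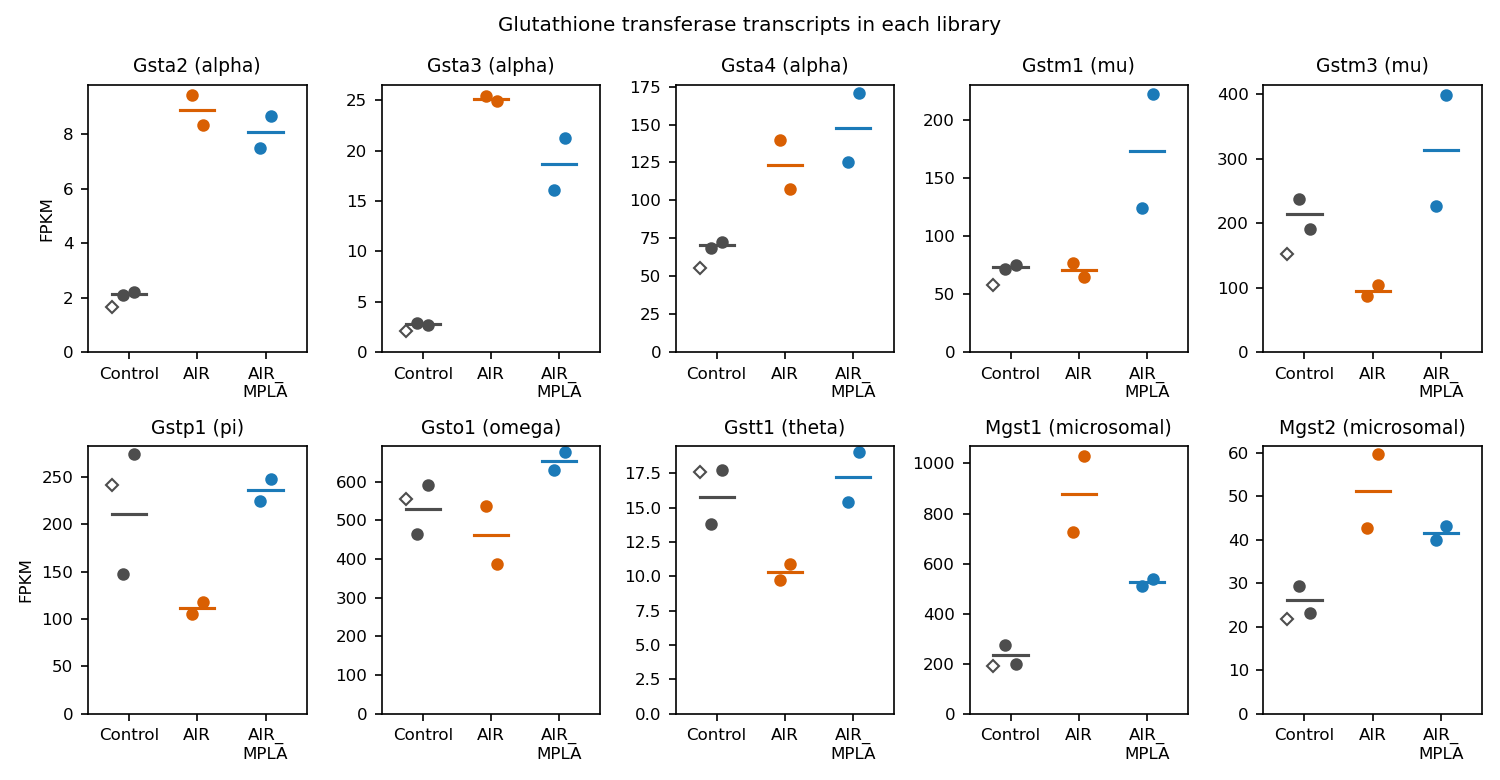
FPKM of each gene in each library on linear axes from 0 (dots), with group means (lines) and the series-table value of Control replicate 2 (open diamonds, not in the means). By mean, Gsta2, Gsta3, Mgst1 and Mgst2 are highest in AIR, and Gstm1, Gstm3, Gstp1, Gsto1 and Gstt1 are lowest there. For Gstm1 and Gsto1 the AIR and Control libraries overlap.

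The comparison of AIR_MPLA with AIR asks what MPLA changed among these transcripts once crypts had been irradiated. Both mu genes, Gstp1 and Gstt1 rose with MPLA. No alpha or microsomal member passed. Of the 10, 4 were higher, 0 lower and 6 did not pass, and 6 had an unadjusted limma p under 0.05. Of all genes tested 19.5% were higher and 9.9% lower, so the members' share of higher calls has to be read against a high background. The median difference of the 10 was 0.39 on the log2 scale, beside 0.15 for all genes. With median-ratio scaling the calls over all genes were 1342 higher and 1369 lower. This comparison shares the AIR libraries with the one before.

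Gstm3 was at 86.7 and 104 FPKM in AIR and at 227 and 400 in AIR_MPLA, so that both treated libraries were above both AIR libraries. The mean was 3.28 times as high (log2 difference 1.65, SE 0.29, limma adjusted p = 0.0167). Gstm1 was at 77.1 and 64.5 FPKM in AIR and at 124 and 223 in AIR_MPLA (log2 difference 1.23, SE 0.28, limma adjusted p = 0.0241). In both mu genes AIR_MPLA replicate 3 was well above replicate 1, and without replicate 3 the log2 differences were 1.25 and 0.81. Gstp1 went from 105 and 117 FPKM to 224 and 248 (log2 difference 1.08, SE 0.29, limma adjusted p = 0.0347). Gstt1 went from 9.73 and 10.9 FPKM to 15.4 and 19.0 (log2 difference 0.68, SE 0.18, limma adjusted p = 0.0352). None of these 4 genes overlapped between the groups, which is not set against the share over all genes.

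These 4 calls were lost under several other settings, though not with only the 4 libraries compared. There the limma adjusted p was 0.0203 for Gstm1, 0.00628 for Gstm3, 0.00196 for Gstp1 and 0.00815 for Gstt1. With GC correction only Gstm3 passed (log2 difference 1.29, limma adjusted p = 0.0344), and the values were 0.82 for Gstm1 (0.0685), 0.62 for Gstp1 (0.109) and 0.24 for Gstt1 (0.258). With median-ratio scaling Gstm1 and Gstm3 passed, but Gstp1 (log2 difference 0.97, adjusted p = 0.0549) and Gstt1 (0.58, 0.0649) did not. When AIR replicate 1, AIR replicate 3, AIR_MPLA replicate 1 or AIR_MPLA replicate 3 was left out, no gene of the 10415 passed the limma test, although 2457 to 3665 had an unadjusted p under 0.05. All 4 genes kept their direction in those fits, Gstm3 between 1.25 and 2.06 and Gstm1 between 0.81 and 1.65.

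The members that rose in AIR against Control gave no call here. Gsta3 was at 16.0 and 21.2 FPKM, below both AIR libraries (log2 difference -0.43, 95% interval -0.83 to -0.02, limma adjusted p = 0.0961). It passed (adjusted p = 0.0441) when the whole-series version of Control replicate 2 entered the shared estimate of spread. Mgst1 was at 512 and 537 FPKM, likewise below both AIR libraries (log2 difference -0.72, limma adjusted p = 0.0656, or 0.0102 with that version). It also passed as lower with only the 4 libraries compared (limma adjusted p = 0.0283). Gsta2 at 7.50 and 8.68 FPKM, Gsta4 at 125 and 171 and Mgst2 at 39.9 and 43.1 overlapped the AIR libraries, with 95% intervals of -0.49 to 0.25, -0.26 to 0.76 and -0.77 to 0.21. Gsto1 was at 630 and 678 FPKM, above both AIR libraries, and did not pass (log2 difference 0.52, limma adjusted p = 0.127, or 0.0365 with the other version of Control replicate 2).

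**Figure D4:**
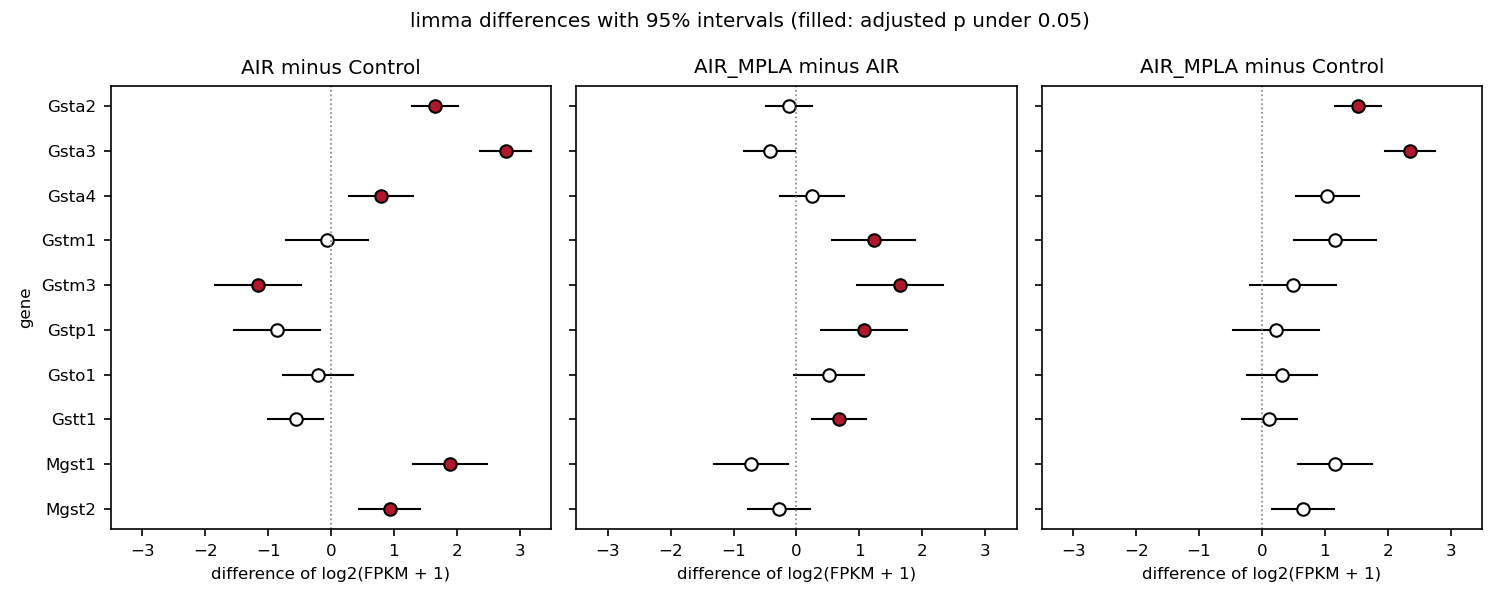
Difference of log2(FPKM + 1) for each gene in the 3 comparisons (points) with the 95% interval of the limma fit, which is not adjusted for the number of genes. Filled points have an adjusted p under 0.05: 6 genes in AIR minus Control, 4 in AIR_MPLA minus AIR and 2 in AIR_MPLA minus Control.

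The comparison of AIR_MPLA with Control asks what differed from unirradiated crypts after both treatments. Gsta2 and Gsta3 were higher and the other 8 members did not pass. Of all genes tested 0.643% were higher and 0.835% lower. The median difference of the 10 was 0.85 on the log2 scale, beside -0.03 for all genes. Gsta3, at 16.0 and 21.2 FPKM against 2.93 and 2.69, had a mean 6.63 times as high (log2 difference 2.35, SE 0.17, limma adjusted p = 0.00987). Gsta2, at 7.50 and 8.68 FPKM against 2.08 and 2.21, passed as well (log2 difference 1.53, SE 0.16, limma adjusted p = 0.0157), though not without AIR_MPLA replicate 1 (0.0589) or AIR_MPLA replicate 3 (0.0941). Gsta3 passed under each of the 15 other settings tried. In AIR_MPLA the enterocyte markers summed to 10288 and 12699 FPKM, the regenerative markers to 440 and 612, and the stem cell markers to 430 and 299, each between the AIR and Control values or overlapping AIR. Paneth cell markers summed to 11693 and 8386 FPKM. All 6 T cell markers were lower than in Control. Their part in these results was not tested.

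Gsta4 (log2 difference 1.04, limma adjusted p = 0.0736), Mgst1 (1.17, 0.0823), Gstm1 (1.16, 0.105) and Mgst2 (0.66, 0.200) had no overlap with Control, yet none of them passed. All 4 passed with the whole-series version of Control replicate 2, at 1.19 (0.0153), 1.43 (0.00331), 1.31 (0.0427) and 0.86 (0.0147). Gsto1 did not overlap Control either (log2 difference 0.32, limma adjusted p = 0.514). Gstm3, Gstp1 and Gstt1 overlapped Control, with log2 differences of 0.50, 0.23 and 0.12. Without Control replicate 3 Gstp1 passed (log2 difference 0.67, limma adjusted p = 0.0485). The sign of Gstp1 (-0.12) and of Gstt1 (-0.042) turned with the series-table values.

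By order of the group means the 10 genes formed 2 patterns. Gsta2, Gsta3, Mgst1 and Mgst2 were highest in AIR, then AIR_MPLA, then Control, and only for Gsta3 and Mgst1 were all 3 groups apart. Gstm1, Gstm3, Gstp1, Gsto1 and Gstt1 were highest in AIR_MPLA, then Control, then AIR. In that second pattern AIR and Control overlapped for Gstm1 and Gsto1, and Control and AIR_MPLA overlapped for Gstm3, Gstp1 and Gstt1. Gsta4 stood between, highest in AIR_MPLA and lowest in Control, with AIR and AIR_MPLA overlapping. Over the 6 libraries, which share these groups, Pearson's r of log2(FPKM + 1) was 0.99 between Gsta2 and Gsta3, 0.98 between Mgst1 and Mgst2, and 0.94 between Gsta3 and Mgst1. It was 0.76 between Gstm1 and Gstm3 and -0.48 between Gstm3 and Mgst1.

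Profiles like those of the summed alpha members were looked for among 6729 other tested genes with a mean of at least 5 FPKM. Most of the alpha sum was Gsta4, with 68.4 of 73.4 FPKM in Control replicate 2 and 140 of 174 in AIR replicate 1. The highest r of so many genes over 6 libraries is high in part by selection. The 5 most alike over the 6 libraries were Nit1 (Pearson's r 0.992), Dhx58 (0.990), Akr1b8 (0.989), Slfn2 (0.989) and Cbr3 (0.988). For the summed mu members they were Tspan15 (0.992), Stradb (0.987), Adh1 (0.987), Ino80b (0.985) and Trim14 (0.977). Adh1, an alcohol dehydrogenase, was at 454 and 391 FPKM in Control, 342 and 325 in AIR, and 483 and 602 in AIR_MPLA.

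Other genes of the family were examined in the same way. Of 22 further names listed, 19 were in the files and 15 were tested. In AIR against Control 1 rose, 4 fell and 10 did not pass, with a median log2 difference of -0.29, beside 8.05% higher and 18.7% lower and a median of -0.13 over all genes. Alox5ap, a membrane protein of the same superfamily as the microsomal enzymes and needed for leukotriene synthesis, fell from 4.76 and 6.55 FPKM to 0.538 and 0.546 (log2 difference -2.10, limma adjusted p = 0.00453). Tuft cell markers, of which this gene is one, were lower for all 5 of 5 tested, with a sum over 7 markers of 12.1 and 13.9 FPKM in Control and 2.03 and 1.22 in AIR. Gstm2, another mu gene, fell from 30.8 and 29.5 FPKM to 11.9 and 10.6 (log2 difference -1.35, limma adjusted p = 0.00841), and Gsta1 was the one that rose.

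With MPLA added to irradiation 7 of these 15 rose and none fell in the limma test, with 8 not passing and a median of 0.71, beside 19.5% higher and 9.9% lower and a median of 0.15 over all genes. These calls too were lost without AIR replicate 1, AIR replicate 3, AIR_MPLA replicate 1 or AIR_MPLA replicate 3, where no gene passed. The risers were Gstm2 (log2 difference 1.55, limma adjusted p = 0.0153), Gstt3 (1.14, 0.0153), Gstp2 (1.33, 0.0153), Gstm4, Gstm6, Gstm7 and Gstk1. Gstm2 was at 11.9 and 10.6 FPKM in AIR and at 29.1 and 41.3 in AIR_MPLA. Gstp2, the near copy of Gstp1, was at 6.12 and 6.57 FPKM in AIR and at 16.4 and 18.5 in AIR_MPLA. Summed over Gstm1 to Gstm7, the level was 402 and 370 FPKM in Control, 238 and 253 in AIR, and 461 and 765 in AIR_MPLA. Gstm2-ps1 and Gm8834, which also share stretches with Gstm1 and Gstm3, are outside this sum. It therefore does not settle how reads were divided. AIR lay below the other groups in this sum. In AIR_MPLA against Control none of the 15 rose and Alox5ap alone fell (log2 difference -1.87, limma adjusted p = 0.0154). Over all genes only 0.643% were higher and 0.835% lower in that comparison.

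**Figure D5:**
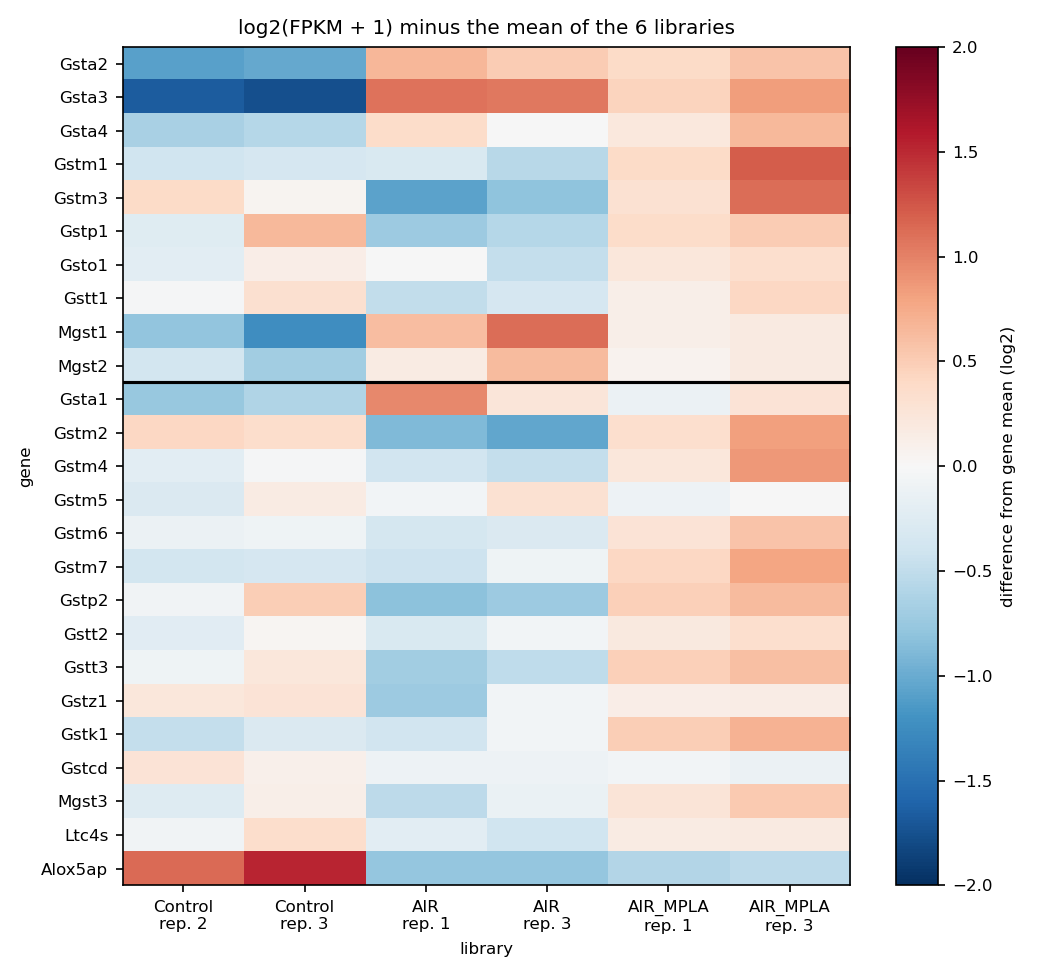
Deviation of log2(FPKM + 1) from the gene's mean over the 6 libraries (colour, red higher and blue lower), for the 10 genes (above the line) and 15 other tested genes of the family (below). Gsta2, Gsta3, Mgst1 and Mgst2 are red in AIR, and most mu, pi and theta genes are blue in AIR and red in AIR_MPLA.

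Genes that supply, recycle and export glutathione were counted against the background of all genes. Of 18 tested genes of glutathione synthesis and turnover 3 rose and 1 fell in AIR against Control, with a median of 0.09, against 8.05% higher and 18.7% lower over all genes. Gclc, the catalytic subunit of the enzyme that starts glutathione synthesis, was at 19.7 and 15.4 FPKM in Control and 52.2 and 31.7 in AIR (log2 difference 1.18, limma adjusted p = 0.0180). The peptidase genes Lap3 (0.87, 0.0208) and Dpep1 (0.80, 0.0347) rose as well. In AIR_MPLA against AIR 2 of the 18 rose and 1 fell, against 19.5% higher and 9.9% lower over all genes. They were Slc3a2 (0.83, 0.0176), Ggt6 (0.70, 0.0326) and, falling, Chac2, which breaks down glutathione (log2 difference -0.89, limma adjusted p = 0.0494). In AIR_MPLA against Control Dpep1 alone passed (1.21, 0.0498), beside 0.643% higher and 0.835% lower over all genes. Of 4 tested glutathione peroxidases none passed in AIR against Control, and Gpx1 rose in AIR_MPLA against AIR (0.64, 0.0405).

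Among 9 efflux pumps only Abcc5 passed in AIR against Control, where 8.05% of all genes were higher and 18.7% lower. It rose from low levels of 0.61 and 0.52 FPKM to 1.91 and 1.46 (log2 difference 0.77, limma adjusted p = 0.0165). In AIR_MPLA against AIR Abcc3 rose (0.75, 0.0300), while Abcg2 (-0.66, 0.0265) and Abcc5 (-0.56, 0.0391) fell, beside 19.5% higher and 9.9% lower over all genes. Of 24 NRF2 regulators and targets outside the transferases 4 rose and 1 fell in AIR against Control, with a median of 0.24. That is 5 of 24 called, against 8.05% higher and 18.7% lower over all genes. The carbonyl reductase gene Cbr3 was at 2.02 and 3.43 FPKM in Control and 28.1 and 16.5 in AIR (log2 difference 2.63, limma adjusted p = 0.00755). The aldo-keto reductase gene Akr1b8 (1.45, 0.00955) and Maff (0.95, 0.0347) also rose, and Nfe2l2, the NRF2 gene itself, was the one that fell (-0.56, 0.0418). Both reductases were still high in AIR_MPLA against Control, Cbr3 at 2.57 (limma adjusted p = 0.0274) and Akr1b8 at 1.46 (0.0365), with the epoxide hydrolase gene Ephx1 at 1.12 (0.0416). In AIR_MPLA against AIR 4 of the 24 rose and 1 fell, against 19.5% higher and 9.9% lower over all genes. The 3 with the smallest p were G6pdx (0.97, 0.0177), Pgd (0.98, 0.0190) and Tkt (0.71, 0.0257), which encode enzymes of the pentose phosphate pathway. Of 6 tested genes of receptors for foreign compounds and their partners, Nr1i3 rose (1.09, 0.0151) and Rxra fell (-0.72, 0.0155) in AIR against Control. Over all genes 8.05% were higher and 18.7% lower. Nr1i3 and Rxra both passed in the other direction in AIR_MPLA against AIR, at -0.72 (limma adjusted p = 0.0439) and 0.96 (0.0153).

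Promoter sequence was compared because members of different classes moved together. RefSeq windows of GRCm38.p6, from 250 bases before to 50 bases after the start of transcription, were found for 9 of the 10 genes, in 11 windows. They were searched on both strands for TGACNNNGC, the core of the antioxidant response element that NRF2 binds. No other motif was searched. The core was in 2 of the 11 windows, one of Gsta3 and one of Mgst1, and in 12.4% of all 32851 promoter windows. Those 2 windows are printed because they belong to the alpha and microsomal genes with the largest differences in AIR, with the core in capitals. The match in Gsta3 (chr1:21240335-21240634, plus strand) starts at position -121 from the start of transcription, and the match in Mgst1 (chr6:138140277-138140576, plus strand) starts at -56 and reads on the opposite strand.
Gsta3: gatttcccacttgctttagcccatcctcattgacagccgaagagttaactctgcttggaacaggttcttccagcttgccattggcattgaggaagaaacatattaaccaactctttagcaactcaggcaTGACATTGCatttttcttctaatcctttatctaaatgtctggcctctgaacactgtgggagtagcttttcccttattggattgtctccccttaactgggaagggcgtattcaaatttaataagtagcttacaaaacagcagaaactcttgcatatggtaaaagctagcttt
Mgst1: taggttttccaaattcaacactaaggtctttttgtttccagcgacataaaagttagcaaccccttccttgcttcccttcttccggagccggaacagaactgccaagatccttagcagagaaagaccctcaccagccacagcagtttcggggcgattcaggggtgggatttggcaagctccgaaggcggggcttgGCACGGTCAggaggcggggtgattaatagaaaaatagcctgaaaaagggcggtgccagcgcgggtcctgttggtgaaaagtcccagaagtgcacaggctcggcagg

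A match to these letters is a description of the sequence, and the other windows, such as those of Gsta2, Gstm1, Gstm3 and Gstp1, do not hold them within these bases.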

How the data were processed

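Libraries were prepared with a TruSeq RNA kit from Trizol extracts of crypts, per the labels' protocols. Per the submitters' processing notes, Trimmomatic, HISAT2, Cufflinks and HTSeq were used with GRCm38.p6. No version and no strand setting was found, so reads of overlapping antisense genes may be mixed. The deposited values are FPKM made by the authors. For 5 of the 6 libraries, single-sample and whole-series values matched to within 1e-06 for all 21878 genes. They differed for Control replicate 2, with FPKM totals of 381669 and 503961. Sequencing depth is not known, and no counting error can be given.

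Groups came from sample titles. limma 3.58.1 in R 4.3.3 was run on log2(FPKM + 1) of 10415 genes (1 FPKM or more in 2 or more libraries). The model had a mean for each of 3 groups, leaving 3 residual degrees of freedom, with variance moderated along a trend in a robust way. Tests were two-sided, with Benjamini-Hochberg adjustment over all genes at 0.05. The log2(FPKM + 1) scale understates changes of low genes. The steps were tested on simulated data. GC content could be assigned to 99.4% of the genes tested. Other settings covered scaling, filters, a pseudocount of 0.1, fewer libraries, the whole-series values, a lowess GC correction with span 0.3, and replicate blocks. Coding sequences of 1 principal transcript a gene were aligned with Biopython 1.88, in place of proteins, which were not used here. Figures were drawn with matplotlib 3.10.9.

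The members, gene lists and settings were chosen with earlier results of these data known. All 10 members are named, with the 3 smallest p-values that passed in each list and comparison, and the 5 genes most like the alpha and mu sums, predicted genes left out. Nfe2l2, Gm3776, Gm10639, Gstm4, Gstm6, Gstm7, Gstk1 and Mgst3 were added after their values were seen.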

Additional observations from a re-analysis of the deposited data

How the results depend on the processing

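Counts here are of genes past the limma threshold, first over all genes, then over the 10 transferases. AIR against Control had 2786 and 6, AIR_MPLA against AIR 3060 and 4, and AIR_MPLA against Control 154 and 2. Leaving out 1 library at a time gave 124 (without AIR replicate 1) to 4329 (without Control replicate 2) genes and 3 to 7 transferases in the first comparison, 0 to 4893 and 0 to 5 in the second, and 13 (without AIR_MPLA replicate 1) to 1645 (without Control replicate 3) and 1 to 5 in the third. A lone library was then assumed to vary like the others. With only the 4 libraries compared, the 3 comparisons had 1427, 4899 and 43 genes. The whole-series values of Control replicate 2 gave 6490, 5724 and 1108 genes, with 7 transferases in the second comparison and 6 in the third. GC correction gave 1404 genes and 1 transferase in the second, and 282 and 4 in the third. Both changes together gave 5105 genes in the first and 1276 genes and 6 transferases in the third. Without a filter the second had 1181 genes and 1 transferase and the third 73 genes, and with a filter of 5 FPKM the third had 57. Median-ratio and upper-quartile scaling each left 2 transferases in the second. The causes were not tested.

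Directions turned for 4 transferases that had no call. Gstm1 in AIR against Control was 0.087 with median-ratio scaling, 0.067 with upper-quartile scaling, 0.085 with the whole-series values, 0.27 with GC correction and 0.50 with both, and ranged from -0.19 to 0.065 without single libraries. Gsto1 there was 0.074 with GC correction and ranged from -0.44 to 0.032 without single libraries. In AIR_MPLA against Control, Gstp1 was -0.12 with the whole-series values and -0.12 with GC correction added, and -0.22 to 0.67 without single libraries, where it passed at 0.67 (without Control replicate 3). Gstt1 was -0.042 and -0.035 in turn, and -0.048 to 0.29 without single libraries.

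Only AIR and AIR_MPLA share 2 replicate numbers, and no label says that these pair the samples. With the replicate block 3562 genes and 4 transferases passed. With the replicate block and GC correction 0 genes and 0 transferases passed in limma, while 3632 genes had an unadjusted p under 0.05. Deviations of same-numbered libraries had a correlation of -0.33 across genes, and a crossed pairing, added after seeing the data, gave 5722 genes and 7 transferases.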
